A study of Mus musculus with 45 samples.

Results

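Milk protein genes were followed across mouse mammary tumors and 3 distant tissues. The 9 genes were the caseins Csn1s1, Csn1s2a, Csn2 and Csn3, the whey proteins Wap and Lalba, the regulators Elf5 and Prlr, and Glycam1, out of 55367 gene symbols in the count table. They were chosen by the levels of Csn2 and Csn1s1 in 4T07 tumors, where both were high, so the levels in 4T07 tumors are described without a test. The other comparisons were tested. The 45 libraries came from female Balb/c mice in 15 groups of 3. Tumor-bearing mice had received cells of 67NR, 4T07 or 4T1 in a mammary fat pad, and control mice had no tumor. All mice, controls included, carried porous polycaprolactone scaffolds under the skin of the back. Scaffold, lung and spleen were taken from all 4 kinds of mice at day 14, and the tumor from the 3 inoculated kinds. The 3 lines descend from a single spontaneous mammary tumor. 67NR forms tumors that do not metastasize, 4T07 cells spread but do not form macroscopic metastases, and 4T1 metastasizes. The labels do not link the tissues of a mouse and do not say what separates the 3 samples of a group beyond their being separate samples, so p-values measure the spread between these samples. A tumor library holds cancer cells and host cells of the fat pad, whose milk protein RNA cannot be told apart here. Likewise, fewer cells of a type and less RNA per cell cannot be told apart in any of these bulk tissues.

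Values are CPM, a library's count for a gene divided by its total count and multiplied by 1000000. The totals ranged from 3491888 to 8175380, and in tumors from 3542368 to 5511691, so a single count was worth between 0.122 and 0.286 CPM. A gene with 0 counts may still be present at up to 3 counts of a library's total, and that limit covers counting error only. The labelled tissues carried their markers. The 8 lung epithelium genes summed to between 6466 and 41281 CPM in lungs and to at most 491 CPM elsewhere. The 8 B cell genes summed to between 517 and 2458 CPM in spleens and to at most 719 CPM elsewhere. The 18 luminal epithelium genes (keratins, claudins and Epcam among them) summed to between 51.1 and 76.4 CPM in 67NR tumors, between 278 and 347 CPM in 4T07 tumors, and between 1537 and 1675 CPM in 4T1 tumors. The markers of mammary luminal cells thus stood lowest in 67NR tumors.

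Milk proteins are made by the alveolar cells of the mammary gland in late pregnancy and lactation. Prolactin binds its receptor, Prlr, which acts through the kinase Jak2 on Stat5a and Stat5b. STAT5, with glucocorticoid receptor and the ETS factor Elf5, switches on the casein and whey protein genes, and Cish and Socs2 are STAT5 targets that damp the signal. The calcium-binding caseins (Csn1s1, Csn1s2a, Csn2) form the milk micelle that Csn3, kappa-casein, keeps in suspension. Lalba, alpha-lactalbumin, is the cofactor of lactose synthesis, and Wap is the whey acidic protein of rodent milk. Glycam1 is secreted in milk and is also a mucin of the high endothelial venules of lymph nodes, where it carries ligands of L-selectin.

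The promoter windows of the 3 calcium-binding caseins are shown because each had its highest group mean in 4T07 tumors, that of Csn1s2a mostly through a single library. The window of Lalba is shown beside them as a milk protein gene without the motif. Each window runs from 250 bases before to 50 bases after the transcript start in RefSeq, on build GRCm38.p6, and is written 5′ to 3′ on the gene's own strand. Capitals mark each match to TTCNNNGAA, the palindrome that STAT factors bind, which reads the same on either strand. Csn2 lies on the minus strand at chr5:87699376-87699675, Csn1s1 on the plus strand at chr5:87665958-87666257, Csn1s2a on the plus strand at chr5:87774200-87774499, and Lalba on the minus strand at chr15:98482634-98482933.
Csn2: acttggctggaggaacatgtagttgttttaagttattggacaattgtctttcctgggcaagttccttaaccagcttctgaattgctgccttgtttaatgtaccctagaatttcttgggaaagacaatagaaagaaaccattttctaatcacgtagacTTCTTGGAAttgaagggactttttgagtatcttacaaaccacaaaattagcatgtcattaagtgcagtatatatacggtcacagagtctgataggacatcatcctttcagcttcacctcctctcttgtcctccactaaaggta
Csn1s1: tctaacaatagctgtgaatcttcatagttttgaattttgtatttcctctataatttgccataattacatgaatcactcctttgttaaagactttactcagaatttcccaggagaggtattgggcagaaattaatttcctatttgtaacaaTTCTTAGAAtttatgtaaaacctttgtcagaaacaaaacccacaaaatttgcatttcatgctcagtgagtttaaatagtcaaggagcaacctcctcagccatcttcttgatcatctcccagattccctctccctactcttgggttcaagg
Csn1s2a: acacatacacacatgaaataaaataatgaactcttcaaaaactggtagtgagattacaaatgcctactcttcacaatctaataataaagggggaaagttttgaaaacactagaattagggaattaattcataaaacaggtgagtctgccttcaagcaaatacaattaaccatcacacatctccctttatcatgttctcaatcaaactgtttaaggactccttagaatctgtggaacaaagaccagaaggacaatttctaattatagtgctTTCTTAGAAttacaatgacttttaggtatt
Lalba: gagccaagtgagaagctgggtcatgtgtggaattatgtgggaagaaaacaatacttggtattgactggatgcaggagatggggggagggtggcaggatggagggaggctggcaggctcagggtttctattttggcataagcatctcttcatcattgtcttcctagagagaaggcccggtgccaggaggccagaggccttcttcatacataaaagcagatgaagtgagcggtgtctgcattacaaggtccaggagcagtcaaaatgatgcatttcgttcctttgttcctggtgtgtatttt
The Csn1s1 match, TTCTTAGAA, began 100 bases before the start, and the Csn2 match, TTCTTGGAA, began 93 bases before it. Csn1s2a held the same letters as Csn1s1, TTCTTAGAA, but 20 bases after its start. Windows were found for 8 of the 9 genes, all but Csn3, and numbered 11, since Prlr has 3 and Elf5 has 2. Of these 11 windows 5 held a match, each of a different gene. The other matches were in Prlr (TTCTAGGAA, 110 bases before one of its starts) and in Glycam1 (TTCCCAGAA, 145 bases before the start). Of all 32851 windows of this length, for any gene, 8.3% held the motif. The ETS-type letters AGGAAG, searched on both strands, were in 5 of the 11 windows (of Wap, Prlr, Lalba and Glycam1) and in 35.4% of all windows. The glucocorticoid receptor half-site TGTTCT, also on both strands, was in 2 of the 11 (of Csn1s2a and Prlr) and in 19% of all windows. A match is a description of letters, not a measured site.

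**Figure D1:**
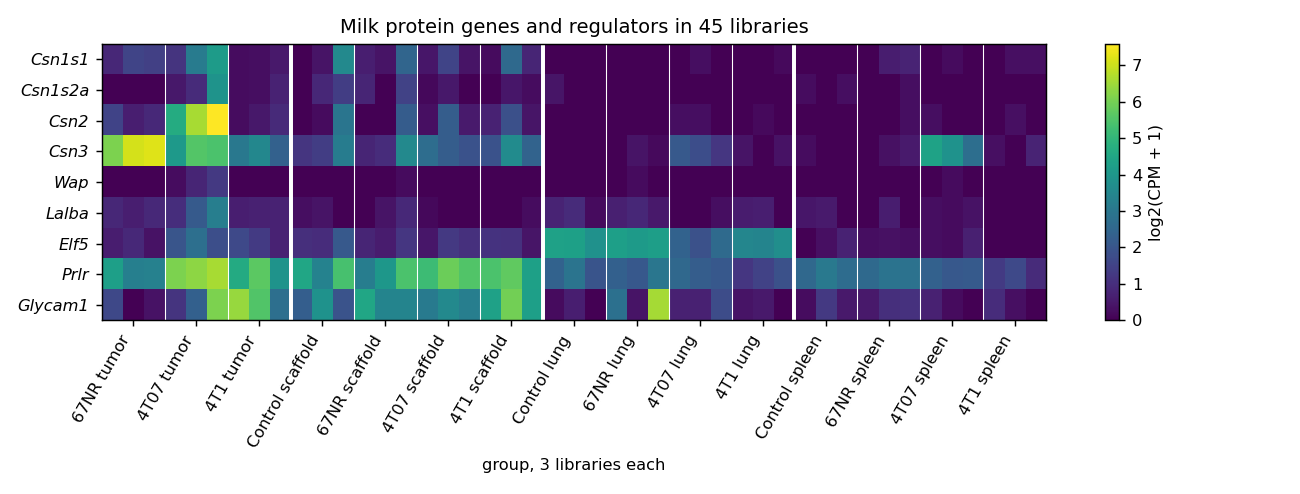
Level of each of the 9 genes (lines of the grid) in each of the 45 libraries (columns, 3 per group), as log2(CPM + 1) by color. The brightest cells are Csn2 in 4T07 tumors, which reached 191 CPM, and Csn3 in 67NR tumors, which reached 147 CPM, while Elf5 is brightest in lungs.

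Csn2, beta-casein, had its highest levels in the 4T07 tumors. It stood at 24.5, 94.9 and 191 CPM in the 3 4T07 tumors (122, 523 and 677 counts), at 1.88, 0.56 and 0.847 CPM in the 67NR tumors, and at 0.183, 0.41 and 0.863 CPM in the 4T1 tumors. The lowest 4T07 tumor was above every other library of the series. The ratio of group means was 94.4 against 67NR tumors and 213 against 4T1 tumors. Within the 4T07 group the highest tumor was 7.80 times the lowest, so the mean of 103 CPM had an SD of 83.6 CPM (n = 3). The next group in the order of means was the control scaffold at 2.31 ± 3.86 CPM (SD, n = 3), and from there down each group overlapped the next.

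Csn1s1, alpha-S1-casein, was less sharply set apart. Its 4T07 tumors stood at 1.2, 7.98 and 16.9 CPM (6, 44 and 60 counts), its 67NR tumors at 0.806, 1.96 and 1.69 CPM, and its 4T1 tumors at 0.183, 0.205 and 0.432 CPM. The lowest 4T07 tumor lay within the range of the 67NR tumors and all 3 lay above the 4T1 tumors. The ratio of means was 5.86 against 67NR and 31.9 against 4T1. Csn1s2a, another calcium-binding casein, had 2, 5 and 49 counts in the 4T07 tumors (0.401, 0.907 and 13.8 CPM). It had 0 counts in all 67NR tumors and 1, 1 and 3 counts in the 4T1 tumors. Most of its 4T07 counts thus came from library 33, which was also the highest tumor for Csn2 and Csn1s1.

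Csn3 did not follow the other caseins. It stood at 66.9, 135 and 147 CPM in the 67NR tumors, at 16.3, 46.3 and 42.6 CPM in the 4T07 tumors, and at 7.13, 10.5 and 4.1 CPM in the 4T1 tumors. The 3 lines did not overlap, with 67NR highest and 4T1 lowest. The ratio of means was 3.32 for 67NR over 4T07 tumors, 16.1 for 67NR over 4T1 and 4.85 for 4T07 over 4T1. The line with the highest Csn3 was therefore the line with the lowest luminal marker sum. No overlap between tumor groups of 3 was common. Of 20508 genes, 51.3% had none between 4T07 and 67NR tumors, 46.7% between 4T1 and 67NR, and 35.9% between 4T1 and 4T07.

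The whey proteins were sparse. Lalba had 5, 19 and 30 counts in the 4T07 tumors (1, 3.45 and 8.47 CPM), against 0.56 to 0.847 CPM in 67NR tumors and 0.549 to 0.648 CPM in 4T1 tumors. All 3 4T07 tumors lay above the 6 others, with a ratio of means of 5.84 against 67NR and 7.13 against 4T1. Wap had 1, 4 and 5 counts in the 4T07 tumors and 0 in the 6 others. Outside tumors it was seen as a single count in 3 libraries, so its level could not be compared at this depth.

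The regulators were also highest in 4T07 among the tumors. Prlr stood at 67, 76.9 and 95.7 CPM in 4T07 tumors, at 18.3, 8.67 and 9.03 CPM in 67NR tumors and at 24, 49.8 and 13.8 CPM in 4T1 tumors. Its 4T07 tumors lay above all other libraries of the series and varied only 1.43-fold among themselves. Elf5 stood at 3.01, 5.81 and 2.54 CPM in 4T07 tumors, at 0.282 to 0.839 CPM in 67NR tumors and at 0.648 to 2.19 CPM in 4T1 tumors. The 4T07 values rested on 15, 32 and 9 counts and lay above those of both other lines. Glycam1 spread widely in 2 lines, with 1.2, 3.99 and 66.6 CPM in 4T07 tumors and 83.7, 45.5 and 5.83 CPM in 4T1 tumors. It had 8, 0 and 1 counts in the 67NR tumors.

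Within the 4T07 tumors, 7 of the 9 genes took the same order, lowest in library 31, then 32, then 33. The exceptions were Csn3 and Elf5, which were highest in library 32. The share of all genes with that order was not counted, so the order cannot be called particular to these genes, and Wap's place in it rests on few counts. The spreads of the genes differed, from 1.43-fold for Prlr to 7.80-fold for Csn2, 14.1-fold for Csn1s1, 34.5-fold for Csn1s2a and 55.3-fold for Glycam1. The B cell sum was 114, 48.1 and 264 CPM in libraries 31, 32 and 33, highest in the same library but lowest in library 32, and the luminal sum was 278, 347 and 329 CPM. Their part in the milk protein levels was not tested.

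**Figure D2:**
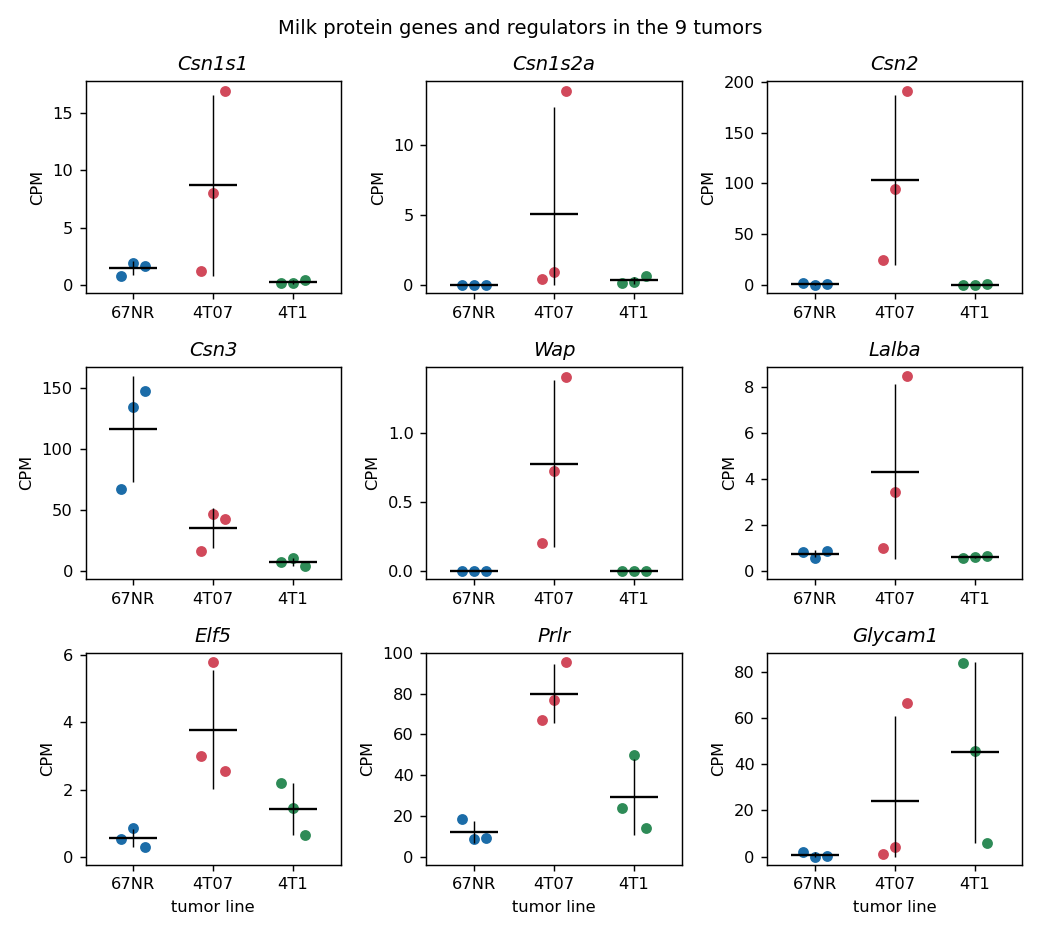
CPM of the 9 genes in the 9 tumors, 1 panel per gene with its own axis. Each point is a tumor (3 per line) and each horizontal bar a group mean, with a vertical line of 1 SD either way, stopped at 0. The 4T07 tumors are highest for Csn2 (24.5 to 191 CPM) and Prlr (67 to 95.7 CPM), and the 67NR tumors for Csn3 (66.9 to 147 CPM).

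The comparison of 4T1 with 67NR tumors asked how the same genes differed between a metastatic and a nonmetastatic line that were not used to choose them. Of the 9 genes, 8 had over 10 counts in the 9 tumors together. Csn1s2a was among them only through the 4T07 tumors, which held 56 of its 61 counts, and is not compared here. Of the other 7 genes, 3 passed an edgeR adjusted p under 0.05 with a fold over 2, beside 20.7% of all 20508 genes tested (11.6% higher and 9.07% lower). Csn3 fell, with a log2 fold change of -4.21 ± 0.43 (SE, adjusted p = 2.38e-06). Glycam1 rose by 5.53 ± 1.45 on the log2 scale (adjusted p = 0.0087). Prlr rose by 1.08 ± 0.38 (adjusted p = 0.0404), but 1 4T1 tumor, at 13.8 CPM, lay below the highest 67NR tumor. Without the 4T1 tumor of library 44 the Prlr difference was 0.48 (adjusted p = 0.309), and the call was lost in 7 of the 14 other settings. The Csn1s1 difference was -2.55 ± 1.10 (adjusted p = 0.0933) and that of Csn2 was -1.38 ± 1.32 (adjusted p = 0.461), on at most 7 counts per tumor. The paper, which used DESeq2, lists Csn1s1 among the few genes up in 4T07 and down in 4T1 tumors relative to 67NR. Elf5 differed by 1.15 ± 0.70 (adjusted p = 0.229) and Lalba by -0.47 ± 0.89 (adjusted p = 0.73).

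Beside Glycam1, the other genes of high endothelial venules and lymph node stroma were mixed, with some at or near 0 and some not. Cxcl13, a chemokine of this list, averaged 21.3 CPM over the 9 tumors, and Enpp2 averaged 33.1 CPM. Ccl21a and Ccl19 had 0 counts in all 4T1 and 67NR tumors, Madcam1 was at most 1.1 CPM and Chst4 at most 0.41 CPM. The sum of the list was 32.8 to 84.2 CPM in 4T1 tumors and 18.2 to 31.3 CPM in 67NR tumors. Of its 7 genes tested, 3 rose in 4T1 against 67NR tumors (Fcer2a, Ackr1 and Enpp2) and none fell, beside 11.6% and 9.07% of all genes. The part of such cells in the Glycam1 levels was not tested.

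The prolactin pathway above the milk proteins was examined through 21 tested genes that were not among the 9. Between 4T07 and 67NR tumors 5 rose and 1 fell, 28.6% of the list beside 28.9% of all genes. Between 4T1 and 67NR tumors 4 rose and 2 fell (28.6% beside 20.7%), and between 4T1 and 4T07 tumors 1 rose and 2 fell (14.3% beside 8.61%). Cish, a STAT5 target that dampens cytokine signaling, rose from 4.57, 4.2 and 2.26 CPM in 67NR tumors to 19.1, 18 and 18.9 CPM in 4T07 tumors (log2 fold change 2.08 ± 0.28, adjusted p = 3.83e-05). The 4T1 tumors stood between, at 10.8, 15 and 12.5 CPM, and also above 67NR (1.59 ± 0.29, adjusted p = 0.0006). Cish thus separated 67NR from both other lines without overlap, while its difference between 4T1 and 4T07 was -0.50 ± 0.24 (adjusted p = 0.19). Of all genes, 51.3% also had no overlap between 4T07 and 67NR tumors and 46.7% between 4T1 and 67NR tumors.

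Jak2, the kinase of the receptor, was highest in 4T1 tumors. It stood at 21.2 to 28.5 CPM in 67NR, 47.7 to 62.1 CPM in 4T07 and 105 to 132 CPM in 4T1 tumors, and it rose in 4T1 by 2.00 ± 0.19 over 67NR (adjusted p = 1.31e-06) and by 1.11 ± 0.18 over 4T07 (adjusted p = 0.000682). Stat5a differed by 0.26 ± 0.26 and Stat5b by 0.72 ± 0.19 between 4T07 and 67NR tumors, both under the 2-fold limit (adjusted p = 0.454 and 0.00628). Socs2 and Nr3c1, the glucocorticoid receptor, did not pass in any of the 3 tumor comparisons. Hsd11b1, which regenerates active glucocorticoid, rose in 4T07 against 67NR (3.20 ± 0.37, adjusted p = 8.63e-06) and was lower in 4T1 than in 4T07 (-1.44 ± 0.30, adjusted p = 0.00497). Prl itself was nearly absent, at 1.81 CPM or less in every tumor.

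The hormone receptors and other milk genes gave a mixed pattern. Pgr, the progesterone receptor, stood at 9.03, 24.5 and 35.3 CPM in 4T07 tumors and at 2.15 to 2.82 CPM in 67NR tumors, and rose by 2.99 ± 0.46 on the log2 scale (adjusted p = 0.000116). It was lower in 4T1 than in 4T07 tumors (-1.97 ± 0.40, adjusted p = 0.0037). Esr1, the estrogen receptor, rose in 4T1 against 67NR tumors (1.91 ± 0.32, adjusted p = 0.000277). The list of hormone-sensing luminal genes had 8 of 15 higher and 2 lower in 4T07 than in 67NR tumors, beside 17.1% and 11.8% of all genes. In 4T1 against 67NR tumors 6 were higher and 4 lower, beside 11.6% and 9.07%, and in 4T1 against 4T07 tumors 1 was higher and 5 lower, beside 3.82% and 4.79%.

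Other milk proteins rose in both 4T07 and 4T1 tumors against 67NR. Of 20 tested, 11 rose in 4T07 (55%) and 1 fell, beside 17.1% and 11.8% of all genes, and the median log2 fold change was 2.05 against 0.16 over all genes. Saa3, a serum amyloid secreted by mammary epithelium, rose by 5.03 ± 0.28, and Ltf, lactoferrin, by 4.71 ± 0.71 (adjusted p = 1.25e-08 and 9.3e-05). Ltf stood at 125, 28.7 and 22.3 CPM in the 4T07 tumors, an order opposite to that of Csn2, Csn1s1 and Csn1s2a. Lyz2, a lysozyme that macrophages also make, fell (-1.30 ± 0.25, adjusted p = 0.000819). In 4T1 against 67NR tumors 7 of the 20 rose (35%) and none fell, beside 11.6% and 9.07% of all genes, and Saa3 rose there too (4.47 ± 0.27, adjusted p = 1.18e-08). In 4T1 against 4T07 tumors 6 of the 20 fell (30%) and 1 rose, beside 4.79% and 3.82% of all genes and 8.61% in either direction. Cel, a lipase of milk, was lower by -3.68 ± 0.77, Ltf by -3.16 ± 0.58, Muc15 by -2.27 ± 0.58 and Wfdc18 by -2.01 ± 0.43 on the log2 scale (adjusted p from 0.00182 to 0.0155). Pthlh, a parathyroid hormone-like factor of milk, was the 1 that rose (3.60 ± 0.58, adjusted p = 0.000981). By flow cytometry the paper found fewer neutrophils in tumors of the nonmetastatic line used as reference here. No list of neutrophil genes was set beside the milk proteins. The part of immune cells in the levels of this list, Saa3 and Ltf included, was not tested.

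Csn1s2b, the casein gene left out of the 9, differed less between the tumor lines than Csn1s1 and Csn2. It stood at 2.61 to 5.08 CPM in 4T07, 1.13 to 3.36 CPM in 67NR and 1.28 to 1.94 CPM in 4T1 tumors. Its means took the same order, highest in 4T07, with a ratio of 1.80 against 67NR and 2.26 against 4T1. None of its 3 tumor differences passed, and it was detected at 0.457 to 7.98 CPM in all 45 libraries. Around the casein cluster on chromosome 5, 34 other genes within 500 kb were in the count table. Only 8 of them had over 10 counts in the 45 libraries together and only Sult1d1, a sulfotransferase, had over 100. Of its 657 counts, 10 came from the 4T07 tumors.

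Epithelial and alveolar lists rose in both lines against 67NR. Among luminal epithelium genes, 13 of 18 rose in 4T07 (72.2%, beside 17.1% of all genes) and 14 of 18 in 4T1 (77.8%, beside 11.6%), and none fell in either. Krt18, a luminal keratin, stood at 2.96 to 3.92 CPM in 67NR, 45 to 81.6 CPM in 4T07 and 375 to 540 CPM in 4T1 tumors. Luminal genes were higher in 4T1 than in 4T07 tumors for 10 of 18 and lower for 1 (55.6% and 5.56%, beside 3.82% and 4.79% of all genes), whereas Csn2, Csn1s1, Csn3 and Prlr stood higher in 4T07. Alveolar transcription factors rose for 10 of 22 in 4T07 (45.5%, beside 17.1%) and 8 of 22 in 4T1 (36.4%, beside 11.6%), and none fell. In 4T1 against 4T07 tumors 1 of them was higher and 2 were lower. Ehf, an ETS factor of the same family as Elf5, stood at 9.88 to 12.4 CPM in 4T07 tumors, 0.538 to 1.98 CPM in 67NR and 0.432 to 2.56 CPM in 4T1 tumors. It rose by 3.07 ± 0.51 against 67NR and was lower by -2.60 ± 0.45 in 4T1 than in 4T07 (adjusted p = 0.00022 and 0.00109). Grhl2, an epithelial factor, was instead higher in 4T1 than in 4T07 (3.32 ± 0.34, adjusted p = 1.06e-05).

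Genes of milk fat and lactose synthesis were called near the background in 4T07 against 67NR tumors and above it in 4T1 against 67NR tumors. In 4T07 against 67NR tumors 7 of 27 rose and 1 fell (29.6% beside 28.9% of all genes), led by Hk2 (3.27 ± 0.24) and Slc2a1 (2.26 ± 0.20), a hexokinase and a glucose transporter that most cells also use. In 4T1 against 67NR tumors 6 rose and 3 fell (33.3% beside 20.7%), and in 4T1 against 4T07 tumors 1 rose and 2 fell (11.1% beside 8.61%).

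Markers of other cells are set beside these lists. Of all genes, 17.1% rose and 11.8% fell in 4T07 against 67NR tumors, 11.6% and 9.07% in 4T1 against 67NR, and 3.82% and 4.79% in 4T1 against 4T07. In the 4T07 against 67NR comparison 7 of 8 B cell genes rose, 5 of 7 high endothelial venule genes rose, 4 of 12 basal genes rose and 2 fell. Skeletal muscle and lung epithelium each had 4 of 8 lower, adipocytes 1 of 11, macrophages 2 of 8, and salivary and skin glands 1 of 3. The adipocyte sum of the fat pad overlapped between lines, at 438 to 641 CPM in 67NR, 385 to 810 CPM in 4T07 and 564 to 1385 CPM in 4T1 tumors. In 4T1 against 67NR tumors 4 of 11 adipocyte genes and 3 of 8 B cell genes rose, 5 of 12 basal genes rose and 1 fell, and 6 of 8 lung epithelium genes and 1 of 8 macrophage genes fell. In 4T1 against 4T07 tumors 3 of 8 muscle genes, 4 of 12 basal genes and 1 of 11 adipocyte genes rose, and 2 of 7 venule genes and 1 of 8 lung genes fell.

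**Figure D3:**
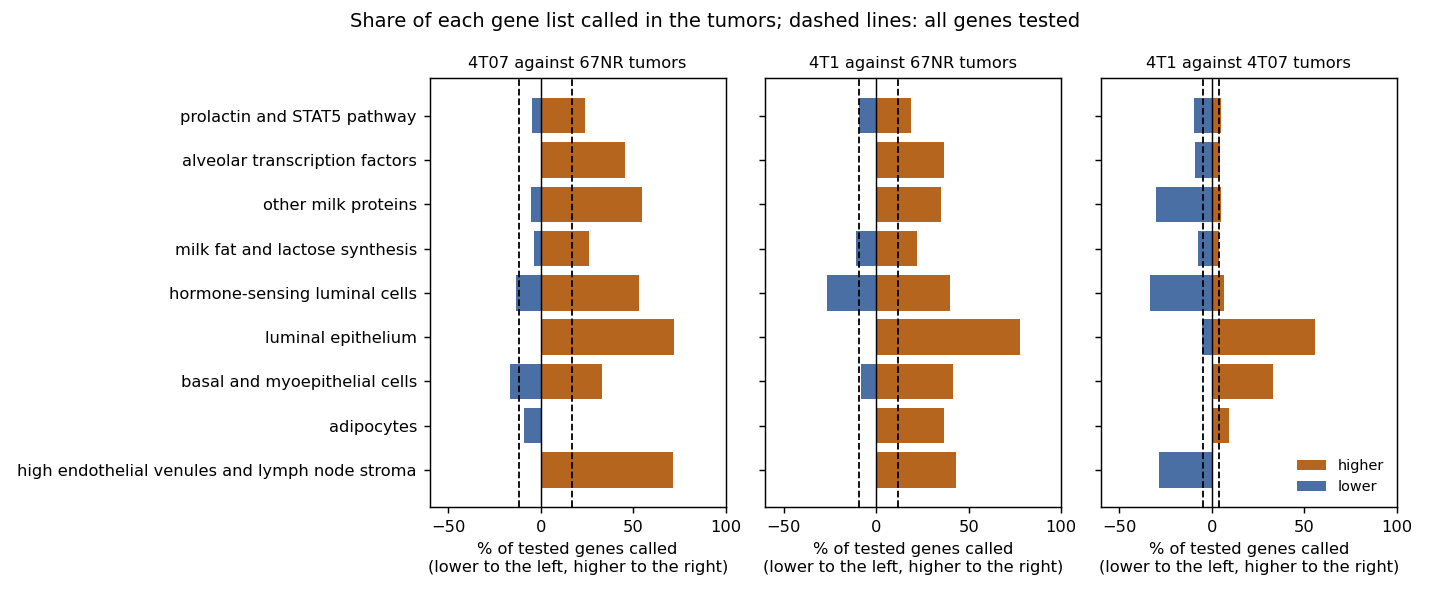
Percent of the tested genes of 9 lists that were called higher (right) or lower (left) in each of the 3 tumor comparisons. Dashed lines give the share of all genes tested. In 4T07 against 67NR tumors the luminal epithelium list reached 72.2% and other milk proteins 55% higher, beside 17.1% of all genes, whereas the prolactin pathway list reached 23.8%.

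Likeness in pattern was described by correlating log2(CPM + 1) over the 9 tumors, which share their line as the main source of spread. Of 12590 genes, Krt76, a keratin of oral epithelium, was most like Csn2 (r = 0.987), with 12, 35.2 and 35.8 CPM in 4T07 tumors and 0 in the 6 others. Gm5694 (0.981), Car4 (0.981), Mthfd2 (0.976) and Medag (0.976) followed. Car4, a carbonic anhydrase, stood at 41.5 to 70 CPM in 4T07 tumors and at 7.9 to 12.3 CPM in the others. For Csn1s1 the nearest were Gm24018 (0.929), Plag1 (0.901), Bdh2 (0.898), 2900093K20Rik (0.892) and Ptges (0.889). By rank correlation none of the 5 genes for Csn2 and 1 of the 5 for Csn1s1 stayed among the nearest, so the order rested on the measure used.

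In scaffolds, the biomaterial implants under the skin, the milk protein genes were not set apart by the tumor line. Of 8 genes tested in 6 comparisons, 1 call was made, Glycam1 in 4T1 against 4T07 scaffolds (1.90 ± 0.51, adjusted p = 0.0943 at the 0.10 threshold used for these tissues). Glycam1 stood at 19.1, 62.1 and 18.5 CPM in 4T1 scaffolds and at 7.58, 10.8 and 8.39 CPM in 4T07 scaffolds, without overlap (as for 18.3% of all genes). The control scaffolds stood at 3.78, 13.5 and 2.83 CPM, also below all 4T1 scaffolds, but that difference did not pass (2.15 ± 0.52, adjusted p = 0.192), nor did that from 67NR scaffolds (1.21, adjusted p = 0.427). The call was lost in 8 of 17 other settings. Over all genes edgeR called 1% in 4T1 against 4T07 scaffolds, 0.0226% in 4T1 against control and against 67NR, 7.44% in 4T07 against control and 5.85% in 4T07 against 67NR. It called 0% in 67NR against control scaffolds, where 626 genes had an unadjusted p under 0.05 and DESeq2 called 1. In that comparison none of the 8 milk protein genes had an unadjusted p under 0.05.

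The spread among scaffolds lay within the groups. Csn1s1 had 0, 2 and 69 counts in the control scaffolds, 3, 2 and 28 in 67NR, 3, 10 and 2 in 4T07, and 1, 27 and 4 in 4T1. Csn2 had 0, 1 and 43 counts, 0, 0 and 22, 2, 19 and 3, and 4, 14 and 2 in the same order. In each group a single library held most counts of Csn1s1 and of Csn2, and it was the same library for both genes (3, 12, 23 and 35). Csn3 differed in the 4T07 scaffolds, where library 23 held 19 of its 82 counts. The tumor-free control scaffold of library 3, at 10.9 CPM of Csn1s1, was above 2 of the 3 4T07 tumors.

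The library with the most Csn2 in a scaffold group also had the highest Csn1s2a, Prlr and luminal marker sum of that group, in all 4 groups, a pattern noticed after the values were seen. Csn1s2a stood at only 0.393 CPM in library 23 and 0.373 CPM in library 35, under 3 counts, so its rank in these groups is within counting error. The share of all genes highest in these libraries was not counted. Csn3 and Elf5 were highest in the library with the most Csn2 in 3 of the 4 groups and Glycam1 in 2. Prlr, for example, stood at 40.3 CPM in library 3 against 21.4 and 9.34 CPM in the other control scaffolds, and at 42.4 CPM in library 12 against 8.31 and 15.1 CPM in the other 67NR scaffolds. The luminal sum was 181 CPM in library 3 against 114 and 107 CPM, and 238 CPM in library 35 against 130 and 110 CPM. Of the 18 luminal genes, Krt19, Epcam, Cldn7 and Ehf were highest in that library in all 4 groups, and 5 more in 3 groups. The sums of skeletal muscle and of salivary and skin gland genes were highest there in 3 of the 4 groups, with library 22 highest in the 4T07 scaffolds. So were the prolactin, alveolar and milk fat lists in 3 groups. The adipocyte, basal and other milk protein sums were highest there in 2 groups, the venule and lymph node sum in 1, and the hormone-sensing luminal, B cell, lung epithelium and macrophage sums in 0. The muscle sum was 335 CPM in library 3 against 3.36 and 295 CPM, and 248 CPM in library 12 against 5.73 and 51.8 CPM. The part of such cells in the casein counts was not tested.

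**Figure D4:**
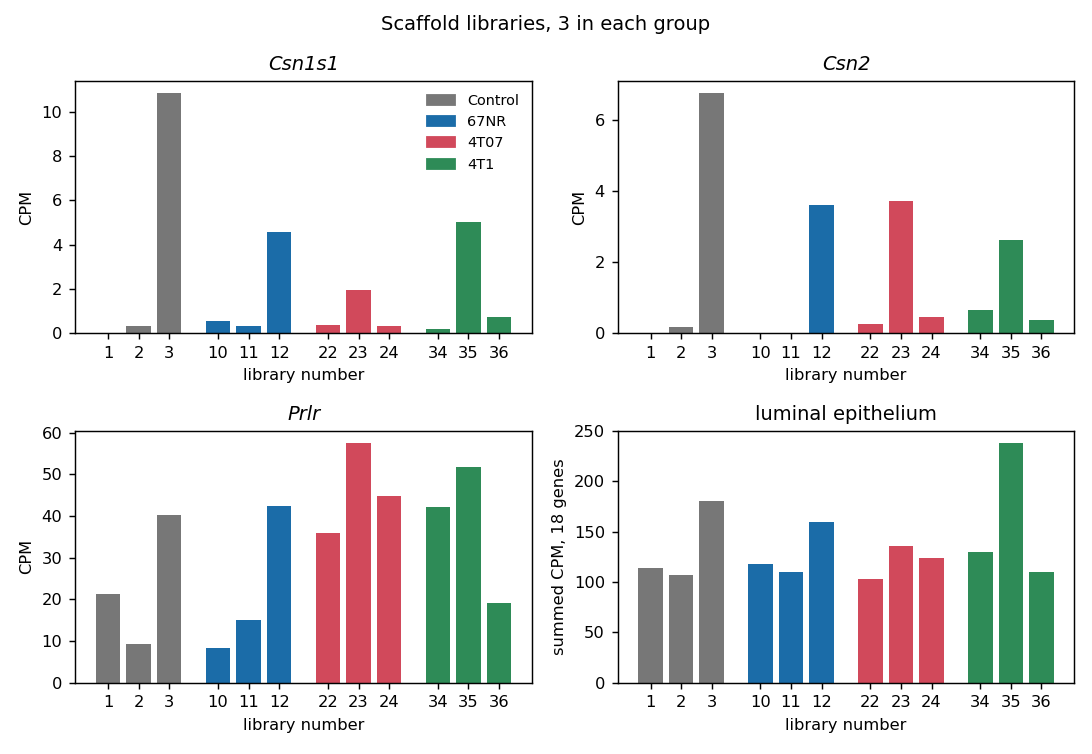
CPM of Csn1s1, Csn2 and Prlr and the summed CPM of 18 luminal epithelium genes in the 12 scaffold libraries, each bar a library and each color a group. In every group the same library (3, 12, 23 or 35) has the tallest bar in all 4 panels.

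In the control mice the tissues differed. Of the 9 genes, 6 passed in control scaffold against lung (24.1% of all genes) and 6 in control scaffold against spleen (25.3%), at an adjusted p under 0.05 and a fold over 2. Csn1s1 and Csn2 had 0 counts in all control lungs and spleens, against up to 69 and 43 counts in control scaffolds, and both passed against lung (adjusted p = 0.00135 and 0.00772) and against spleen (adjusted p = 0.00262 and 0.0135). These calls rested on library 3, since without it the adjusted p against lung became 0.385 for Csn1s1 and 0.617 for Csn2, and the calls against spleen were lost too. Csn3 had 0 counts in control lungs and 1 in the control spleens together, and stood at 1.26, 1.58 and 8.03 CPM in control scaffolds (adjusted p = 0.000224 and 0.00121). Without library 3 the adjusted p against spleen was 0.0511.

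Prlr was higher in control scaffolds, at 21.4, 9.34 and 40.3 CPM, than in control lungs at 2.91 to 6.49 CPM (log2 fold change 2.63 ± 0.46, adjusted p = 9.31e-06) and control spleens at 4.85 to 7.38 CPM (2.22 ± 0.46, adjusted p = 0.000121). Glycam1 passed against lung (4.99 ± 1.63, adjusted p = 0.014), lost without control scaffold library 2 (adjusted p = 0.124) or control lung library 6. Against spleen it passed narrowly (3.56 ± 1.44, adjusted p = 0.0491) and was lost in 24 of 36 other settings. Elf5 was the exception, higher in control lungs at 19.2, 18.9 and 13.4 CPM than in control scaffolds at 1.05, 0.95 and 3.31 CPM (scaffold minus lung -2.99 ± 0.38, adjusted p = 1.43e-08). It was higher in control scaffolds than in control spleens, which held at most 0.647 CPM (2.77 ± 0.68, adjusted p = 0.000992), a call lost without library 3 (adjusted p = 0.0505). It was also higher in control lung than in control spleen (5.76 ± 0.53, adjusted p = 2.95e-12), the only call among the 9 there, beside 29.8% of all genes.

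Tumor and scaffold of the same kind of mouse were compared for 67NR and 4T1. The 9 genes include Wap, which had over 10 counts only through the 4T07 tumors and is not read. In 67NR mice 2 of 9 genes passed, beside 28.5% of all genes. Csn3 was higher in the tumor (4.80 ± 0.59, adjusted p = 6.71e-09), with 66.9 to 147 CPM in tumors and 0.739 to 10.8 CPM in scaffolds. Glycam1 was lower in the tumor (-4.00 ± 1.38, adjusted p = 0.0182), lost without library 10, 20 or 21. In 4T1 mice edgeR called 0 of the 9, beside 21% of all genes, with 2 of the 9 at an unadjusted p under 0.05.

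In lungs, Csn3, Elf5, Prlr, Glycam1 and Lalba had enough counts to be tested, and the other 4 genes had at most 3 counts in any library. Over the 6 comparisons 14 of 30 tests passed at an adjusted p under 0.10 and a fold over 2, 3 of them for Csn3. Csn3 had over 10 counts only through the 4T07 lungs (34 of 41 counts), so its calls are not read as results and its levels are described. Elf5 was lower in the lungs of 4T07 mice, at 4.23, 2.68 and 5.21 CPM, than in control lungs at 13.4 to 19.2 CPM and 67NR lungs at 16.6 to 18.4 CPM. The 4T1 lungs, at 10.1, 9.74 and 12.4 CPM, stood between without overlap. Of all genes, 27.1% had no overlap between 4T1 and control lungs, 29.8% between 4T1 and 67NR, and 48.4% between 4T1 and 4T07. Elf5 in 4T07 lungs differed from control by -2.03 ± 0.24 (adjusted p = 9.98e-07) and from 67NR by -1.96 ± 0.24 (adjusted p = 1.61e-06), and 4T1 from 4T07 by 1.37 ± 0.25 (adjusted p = 0.000187). The difference of 4T1 from control lungs was under 2-fold (-0.66 ± 0.21, adjusted p = 0.0596). The lung epithelium sum moved with it, at 6466 to 16906 CPM in 4T07 lungs and 31186 to 41281 CPM in the 9 other lungs, and its part in the Elf5 difference was not tested.

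Csn3 appeared in the lungs of 4T07 mice. It had 16, 12 and 6 counts there (3.39, 2.48 and 1.3 CPM) and 0 counts in the control lungs, at least 4.63-fold higher when control lungs are set at 3 counts per library. No 67NR or 4T1 lung was above 0.325 CPM. Since Csn3 had enough counts only through the 4T07 lungs, no p-value is given for these differences. The same was seen in spleens, where Csn3 stood at 19.8, 13.5 and 5.73 CPM in 4T07 mice (96, 78 and 20 counts) and at 0.685 CPM or less in all other spleens. In spleens too Csn3 had over 10 counts only through the 4T07 mice (194 of 202 counts), so its levels there are likewise described without a p-value.

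The other caseins did not accompany Csn3 in these organs. Csn2 had at most 1 count in any lung or spleen and Csn1s1 at most 3. The luminal marker sum was lower in the 4T07 organs. It was 325 to 695 CPM in 4T07 lungs against 1119 to 1536 CPM in the 9 others, and 37.1 to 41 CPM in 4T07 spleens against 57.5 to 68.6 CPM in control spleens. Lungs of tumor-free mice carried this sum too, and the lung epithelium sum was lower in the same 4T07 lungs. The luminal sum thus does not measure spread tumor cells, and the source of Csn3 was not tested. The sum of the hormone-sensing luminal list was higher in 4T07 spleens, at 1355 to 2584 CPM against 398 to 486 CPM in controls, and its part was not tested. Abundant genes weigh most in such a sum. Over the 9 tumors S100a6 of this list averaged 8518 CPM, Ly6a 291 CPM and Pgr 10.3 CPM. The levels of these single genes in spleens are not given here, so the sum is not read as a measure of hormone-sensing cells there.

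Glycam1 in lungs rested on few libraries. It had 31, 2 and 641 counts in the 67NR lungs (5.94, 0.325 and 92.7 CPM), against at most 0.541 CPM in control lungs. The 67NR lungs passed against control (6.94 ± 1.40, adjusted p = 0.00526), 4T07 (4T07 minus 67NR -4.59 ± 1.12, adjusted p = 0.00224) and 4T1 (4T1 minus 67NR -6.81 ± 1.34, adjusted p = 0.00258). Without library 15 the differences were 3.50 (adjusted p = 0.0786), -1.17 (adjusted p = 0.288) and -3.37 (adjusted p = 0.0731), so the call against 4T07 was lost. In library 15 Ccl21a and Ccl19 had 0 counts, Madcam1 stood at 0.579 CPM and Chst4 at 0.434 CPM. The venule and lymph node sum, which holds the other genes of the list too, was 132 to 181 CPM in 67NR lungs and 107 to 119 CPM in control lungs. The part of such cells was not tested.

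Lalba passed in 4T07 lungs against control (-2.65 ± 1.22, adjusted p = 0.0847) and against 67NR (-2.62, adjusted p = 0.086), on 0, 0 and 1 counts in 4T07 lungs and at most 5 in the others. Each of these calls was lost in 5 of 16 other settings.

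Prlr was lowest in the organs of 4T1 mice. In lungs it stood at 1.29, 1.84 and 2.7 CPM in 4T1 mice, and at 2.91 to 6.8 CPM in the 9 others, without overlap. The shares of all genes without overlap between these lungs are those given for Elf5. Prlr passed against control (-1.18 ± 0.38, adjusted p = 0.0614), 67NR (-1.15 ± 0.37, adjusted p = 0.0643) and 4T07 lungs (-1.06 ± 0.39, adjusted p = 0.0393), and each call was lost when certain single libraries were left out (4, 5, 37 or 38 against control, 15, 37 or 38 against 67NR, and 25 or 37 against 4T07). In spleens it stood at 1.44, 2.2 and 0.914 CPM in 4T1 mice and at 4.85 to 7.38 CPM in control mice, with all 4T1 spleens below the 9 others. Of all genes, 44.1% had no overlap between 4T1 and control spleens, 48% between 4T1 and 67NR, and 19.6% between 4T1 and 4T07. Prlr was lower in 4T1 than in control spleens (-1.69 ± 0.35, adjusted p = 0.00184) and 67NR spleens (-1.60 ± 0.35, adjusted p = 0.00298), a call kept in every setting that gave a value. The difference from 4T07 spleens was -1.16 (adjusted p = 0.117). The B cell sum was also lower in 4T1 spleens, at 517 to 927 CPM against 1824 to 2458 CPM in control spleens. In 4T07 spleens it was 704 to 796 CPM, inside the 4T1 range, while Prlr, at 3.28 to 4.12 CPM, lay above all 4T1 spleens. The part of B cells was not tested.

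Over the 5 lung genes, the calls were 1 in 67NR against control (4.25% of all genes), 3 in 4T07 against control (29%), 4 in 4T07 against 67NR (29.7%), 1 in 4T1 against control (4.61%), 2 in 4T1 against 67NR (5.03%) and 3 in 4T1 against 4T07 (23.5%). Over the 4 spleen genes, Csn3, Elf5, Prlr and Glycam1, edgeR called 0 in 67NR against control spleens, where none had an unadjusted p under 0.05, beside 2.26% of all genes. It called 1 in each of the other 5, beside 18.6% in 4T07 against control, 14.7% in 4T07 against 67NR, 19.9% in 4T1 against control, 20.7% in 4T1 against 67NR and 2.33% in 4T1 against 4T07. Each count for a comparison with 4T07 lungs or spleens includes Csn3, which had enough counts only through the 4T07 mice.

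**Figure D5:**
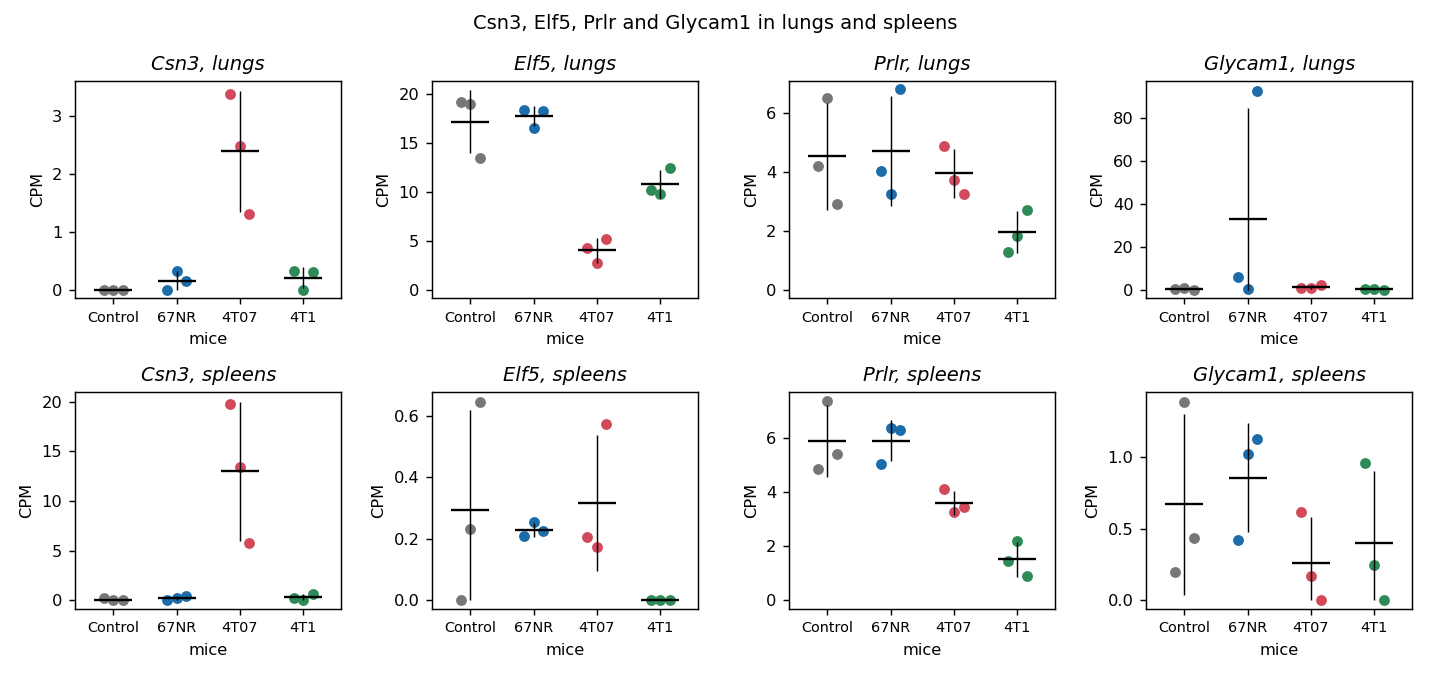
CPM of Csn3, Elf5, Prlr and Glycam1 in lungs and spleens of the 4 kinds of mice, each point a library (3 per group), each horizontal bar a mean and each vertical line 1 SD either way, stopped at 0. Csn3 stands apart in 4T07 lungs (1.3 to 3.39 CPM) and spleens (5.73 to 19.8 CPM), Elf5 is lowest in 4T07 lungs (2.68 to 5.21 CPM), and a single 67NR lung reached 92.7 CPM of Glycam1.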

How the data were processed

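RNA of tumors, scaffolds, lungs and spleens had been sequenced from 3' tags (Lexogen QuantSeq 3' mRNA FWD with molecular identifiers). The authors deposited raw counts of reads per gene symbol, 1 column for each of the 45 libraries, and their processing notes name Trim Galore 0.5.0, STAR 2.6.0 and featureCounts. The genome build, annotation, strand setting and collapsing of identifiers are not given in the sources used here, so reads of overlapping or near-identical genes may be split. Of 55487 lines, 120 repeat a symbol, none of them one of the 9 genes.

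Library numbers are those of the columns. Tests were edgeR 4.0.16 quasi-likelihood tests (R 4.3.3) with TMM scaling on genes with over 10 counts in the libraries fitted, Benjamini-Hochberg adjusted over all genes tested. Tumors, scaffolds, lungs and spleens were each fitted alone, and comparisons across tissues were fitted on all 45 libraries. A call needed a fold over 2 and an adjusted p under 0.05 in tumors, between control tissues and between tumors and scaffolds, and under 0.10 within the other tissues. The scripts were tested on simulated data. Alternatives were DESeq2 1.42.0, its size factors, other count filters, fits of 2 groups and leaving out each library.

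The 9 genes and the lists were chosen with earlier results of these data known. Named besides the 9 were core pathway genes, casein neighbors, the 5 genes most like Csn2 and Csn1s1, and, per list and tumor comparison, up to 4 called genes in each direction with the largest change and a mean of at least 1 CPM, from which examples are given.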

Additional observations from a re-analysis of the deposited data

Results flagged for a closer look

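Differences of log2(4T1/67NR) between tumors and another tissue were tested directly, on all 45 libraries, and 7 of 27 passed an adjusted p under 0.10 by edgeR, each for differing between tissues. Against scaffolds 2 of 9 genes passed, beside 19% of all genes. The 4T1 over 67NR difference of Csn3 was lower in tumors than in scaffolds by a log2 value of -4.68 ± 0.82 (SE, adjusted p = 4.36e-05), with Csn3 lower in all 4T1 tumors than in all 67NR tumors and overlapping between the scaffolds. That of Glycam1 was higher in tumors than in scaffolds by 4.34 ± 1.64 (adjusted p = 0.0688), a call lost in 6 other settings.

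Against lungs 3 of 9 passed, beside 23.6% of all genes. Prlr, which stood lower in 4T1 than in 67NR lungs and higher in 4T1 than in 67NR tumors on average, differed by 2.32 ± 0.71 (adjusted p = 0.0163). Glycam1 differed by 12.42 ± 1.90 (adjusted p = 2.47e-06), and 641 of the 674 counts of the 67NR lungs were in library 15. Its adjusted p was at most 0.000568 in the other settings. Elf5 differed by 1.84 ± 0.74 (adjusted p = 0.0804), a call lost in 9 other settings.

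Against spleens 2 of 9 passed, beside 34.6% of all genes. Prlr, lower in all 4T1 than in all 67NR spleens, differed by 2.74 ± 0.79 (adjusted p = 0.00647). Elf5 differed by 4.48 ± 1.99 (adjusted p = 0.0885), a call lost in 10 other settings. It had 0 counts in all 4T1 spleens and 1 in each 67NR spleen, so this value depends on the prior count of the fit and gives no size.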

How the results depend on the processing

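No called value for a single gene and comparison changed sign. Under the alternatives 4123 such values kept their side of the threshold, 95 lost and 41 gained a call. Of the 9 genes, the count called in 4T1 against 67NR tumors was 3 and 2 to 4 with a library left out. In scaffolds it was 1, but 2 with DESeq2, 6 with no count filter, 0 with fits of 2 groups, and 0 to 2 with a library left out (0 without 11, 22, 23, 24, 35 or 36, and 2 without 2). In lungs it was 14 with the Csn3 calls counted, 3 with at least 10 counts required in every library, and 11 to 14 with a library left out. In spleens it was 5, also with the Csn3 calls counted, and 5 to 6 with a library left out. Between control tissues it was 13, and 7 to 13, lowest without scaffold library 3. Between tumors and scaffolds it was 2, 4 with no filter, and 1 to 3 (1 without tumor library 20 or 21). For the differences between tissues it was 7, 12 with no filter, and 4 to 8 (4 without tumor library 21 or 43). The causes were not tested.

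Of the list genes in 4T07 against 67NR tumors, 68 rose (31 with at least 10 counts in every library, 62 to 69 with a library left out) and 19 fell (12 with DESeq2, 7 with at least 10 counts, 12 to 21 with a library left out, 12 without library 32). In 4T1 against 67NR tumors 59 rose (30 with at least 10 counts, 47 to 61) and 17 fell (9 with at least 10 counts, 16 to 19). In 4T1 against 4T07 tumors 23 rose (6 with at least 10 counts, 19 to 26) and 20 fell (31 with no filter, 10 with at least 10 counts, 15 to 24). The stricter filter tests fewer genes.

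Requiring 10 counts in every library left no member to test in spleens, between control tissues, between tumors and scaffolds or between tissues. With TMM-scaled CPM, 1 of 135 group means moved by more than its SD, that of Elf5 in 67NR lungs (16.3 CPM). Leaving out each of the 12 4T07 libraries from the fit of all 45 libraries was not run. No paired analysis was possible because the labels do not link the tissues of a mouse. At these depths Wap, Lalba and Csn1s2a rested on few counts outside the 4T07 tumors, so their levels there cannot be ordered.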
